A study of Mus musculus with 14 samples.

Results

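Polycomb, trithorax and DNA methylation regulators were followed as one set of 48 genes in sorted mouse multipotent progenitors, and 46 of the 48 had a probe set that named 1 gene, out of 19155 genes measured. The rule names the genes by what their products are known to do and uses no measured value, although earlier results of these data were known when the set was proposed. Ash1l and Dot1l were not analysed here. The 46 genes fall into 11 classes, from the DNA methyltransferases to the nucleosome remodelers.

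Polycomb repressive complex 2 (PRC2) places methyl groups on lysine 27 of histone H3, and Polycomb repressive complex 1 (PRC1) binds that mark through its CBX subunits and adds ubiquitin to histone H2A. The trithorax and COMPASS proteins methylate lysine 4 of the same histone at active genes and counter Polycomb repression. DNMT enzymes methylate cytosine in DNA and TET enzymes oxidise that mark. In blood, several of these genes are known for their roles in stem cell self-renewal and for mutations in clonal hematopoiesis, among them Dnmt3a, Tet2 and Asxl1.

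Wild-type C57BL/6 mice gave the bone marrow, and each of 14 arrays carried RNA of 20000 double-sorted cells. The young mice were aged 8 to 10 weeks and the old ones 24 months. MPP3, a myeloid-biased progenitor, was gated as Lin-, cKit+, Sca-1+, Flk2-, CD48+ and CD150- in the series text, while the methods of the study write CD150+, and MPP4, a lymphoid-biased one, as Lin-, cKit+, Sca-1+ and Flk2+. MPP3 had 3 young and 3 old arrays and MPP4 had 5 young and 3 old ones, described as biological replicates. The labels name no treatment and do not say whether animals were pooled. Each group is a gated population, so fewer cells of a type and less RNA per cell cannot be told apart.

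A value is a rank-based score. The authors mapped each array onto an exponential distribution, so a higher value means that a smaller share of probe sets on that array was brighter, and differences are given as differences in normalized value and not as folds. Values of different probe sets are not set against each other. As a measure of signal only, 45 of the 46 genes averaged above the median gene of 0.695.

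The arrays differed in ways that the 4 groups do not describe. Flt3, which encodes the Flk2 used in the gate, was 1.42 to 2.20 on the MPP3 arrays and 2.77 to 3.53 on the MPP4 arrays, and Slamf1, which encodes CD150, was at most 0.251. Clustering of the dimmest probe sets was cut into 2 array sets, a number fixed beforehand. The 6 old arrays lay in set 1 together with replicate 1 of young MPP3 and replicates 1 and 2 of young MPP4. The remaining 5 young arrays formed set 2. The sets were drawn from these same arrays, so a gene that divides the young arrays by set is no separate evidence for them. The young arrays were also part of an earlier series, so age and the time of the experiment cannot be told apart. Xist was above 1 on 4 young arrays and on no old array. In old MPP3 the mean over 6 of 6 mature neutrophil markers was 1.15 to 1.72, against 0.721 to 1.11 in young MPP3. The mean over 4 of 4 mast cell and basophil markers was 0.914 to 2.08 against 0.685 to 1.18, and that over 5 of 5 monocyte and macrophage markers was 0.341 to 0.769 against 0.251 to 0.339. The mean over 5 of 5 T and NK cell markers was 0.913 to 1.00 in old against 0.767 to 0.879 in young MPP3, and that over 3 of 5 erythroid markers 0.821 to 1.11 against 0.925 to 1.41. The scores have no true zero, and the part of these markers in the results for old MPP3 was not tested.

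To show the regulatory sequence of Polycomb genes that come up below, the 250 bases upstream of the transcription start were taken from RefSeq (GRCm38.p6) for Phc1 and Ring1, both on the minus strand, at chr6:122340228-122340477 and chr17:34024681-34024930. They are shown as examples of PRC1 genes whose old MPP3 arrays all lay below the young ones. Neither gene was called, and 8.04% of all genes were lower without overlap in that way. CG dinucleotides are in capitals because CG is the letter pair that DNMT enzymes methylate.
Phc1: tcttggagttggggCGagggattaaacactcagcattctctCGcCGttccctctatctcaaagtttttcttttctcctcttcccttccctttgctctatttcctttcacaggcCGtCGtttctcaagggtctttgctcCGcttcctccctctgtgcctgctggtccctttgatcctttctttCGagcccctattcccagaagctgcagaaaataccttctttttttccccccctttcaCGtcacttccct
Ring1: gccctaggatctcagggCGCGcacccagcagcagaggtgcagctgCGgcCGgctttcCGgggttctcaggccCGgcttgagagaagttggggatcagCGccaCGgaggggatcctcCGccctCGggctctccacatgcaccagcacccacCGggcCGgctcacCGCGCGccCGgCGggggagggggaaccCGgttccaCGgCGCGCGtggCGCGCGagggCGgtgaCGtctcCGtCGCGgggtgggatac
The Ring1 window holds 30 CG dinucleotides and the Phc1 window 8. Among the 38 regulators with an entry, the windows held 2 (Dnmt1) to 51 (Tet2) CG dinucleotides. Their median was 20.5, against 6 over all 27025 genes with an entry, measured here or not. Only the first listed start of a gene was used, and Dnmt1 has 3 listed starts. CG, which reads the same on both strands, occurred in 100% of these 38 windows and in 91.7% of all windows of that length. No methylation was measured here.

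The first question was whether regulators of chromatin differed between young and old progenitors of one kind. In limma, with Benjamini-Hochberg adjustment over all genes, 0 of the 46 regulators passed an adjusted p of 0.05 in old against young MPP3, where the background over all genes was 0%, with 0 of 19155 genes called. An unadjusted p under 0.05 was reached by 8 regulators, against a background of 8.19%, with 2 higher (background 3.44%) and 6 lower (background 4.75%) in old MPP3. The old and young MPP3 arrays did not overlap for 7 regulators, against a background of 14.2%, with 1 higher (background 6.14%) and 6 lower (background 8.04%). Those 6 were Cbx2, Phc1, Ring1, Kdm6b, Kdm5a and Sirt6, and the gene that was higher was Sirt7. The median difference over the 46 regulators was -0.0588, against 0.000183 over all genes, and the mean was higher in old cells for 18 of 46 regulators, against 50.1% of all genes. Without old MPP3 replicate 3 the median difference was -0.0178, and without old MPP3 replicate 1 it was -0.0813. With array weights it was -0.00419, and the mean was higher in old cells for 22 of 46.

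In MPP4 the same test also called 0 of the 46 regulators, with a background of 0% and 0 genes called overall. An unadjusted p under 0.05 was reached by 6, against a background of 9.77%, with 5 higher (background 4.5%) and 1 lower (background 5.27%) in old MPP4. The arrays did not overlap for 3 regulators, against a background of 7.29%, namely Sirt1 and Hdac3, which were higher (background 3.28%), and Phc2, which was lower (background 4.01%). The median difference was 0.0419 against -0.000171 over all genes, and the mean was higher in old cells for 30 of 46, where the background was 49.8%. Within array set 1 alone 26 of 46 did, with a median of 0.0167. The mean over 8 of 10 markers of dividing cells was 1.99 to 2.13 in old against 1.70 to 2.01 in young MPP4, and that over 4 of 4 mast cell and basophil markers 0.542 to 0.631 against 0.284 to 0.563, and their part in these differences was not tested. The count at an unadjusted p under 0.05 rested on single arrays: it was 2 without old MPP4 replicate 2 and 10 when young MPP4 replicate 2 was left out. The median was 0.0253 without young MPP4 replicate 3 and 0.0239 without replicate 5.

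**Figure D1:**
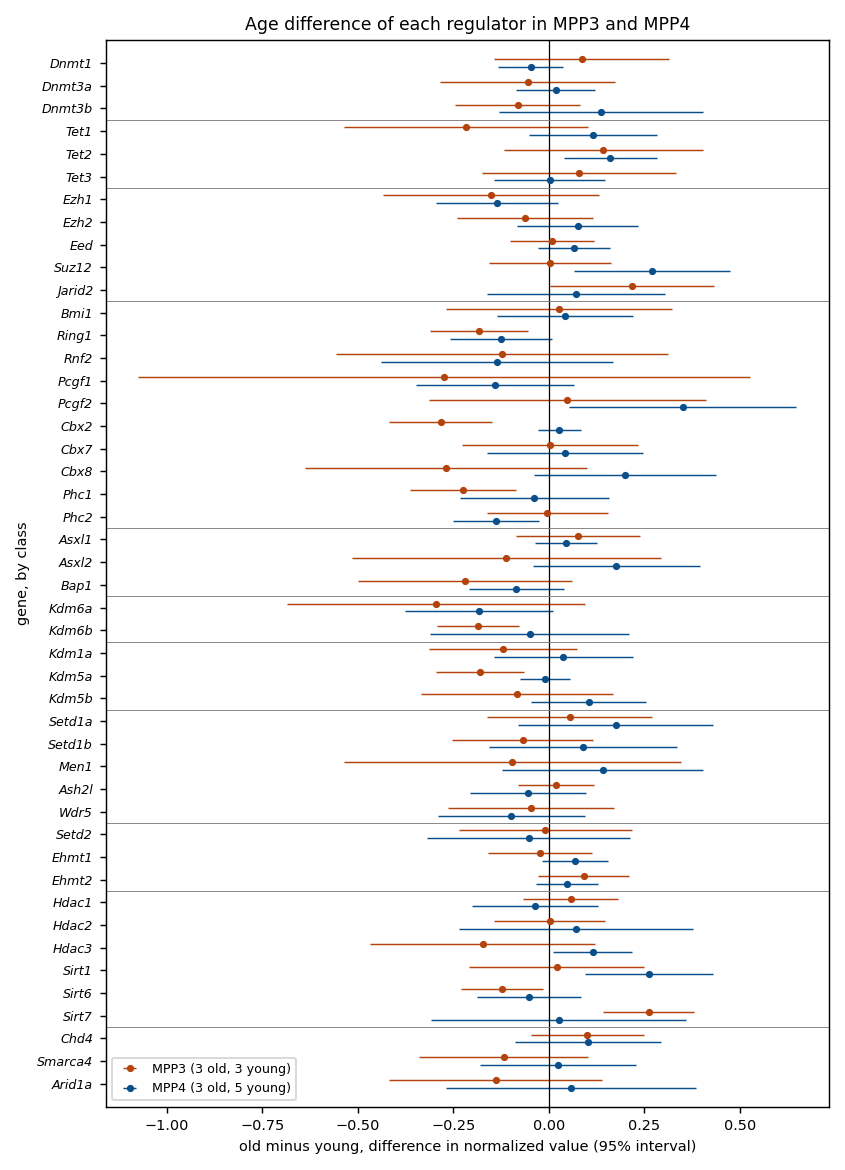
Old minus young difference in normalized value for each of the 46 regulators (rows, by class), in MPP3 (orange, 3 old and 3 young arrays) and MPP4 (blue, 3 old and 5 young arrays). Points are limma differences and bars are 95% intervals. Cbx2 in MPP3 sits at -0.284 with an interval that ends at -0.149, and Cbx2 in MPP4 sits close to the zero line.

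The test of the difference itself, the age difference of MPP4 minus that of MPP3, used all 14 arrays. It called 0 of the 46 regulators, with a background of 0%. An unadjusted p under 0.05 was reached by 6, against a background of 6.26% in either direction. All 6 had a higher age difference in MPP4 than in MPP3, and a background for that direction alone is not given. They were Cbx2, Kdm5a, Cbx8, Hdac3, Tet1 and Suz12. The number was 10 without young MPP4 replicate 2 and 3 without young MPP3 replicate 2, young MPP4 replicate 1 or old MPP4 replicate 2. The median over the 46 was 0.102 against -0.00194 over all genes, and 34 of 46 were above zero where 48.7% of all genes were. The median was 0.0559 without old MPP3 replicate 3 and 0.0669 without the 4 arrays with Xist. This comparison shares its arrays with both age comparisons and is not a separate line of evidence.

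Young MPP4 and young MPP3 were compared to see whether the regulators differ between the populations before ageing. Over all genes 25 were called, a background of 0.131%, and 0 of them were regulators. An unadjusted p under 0.05 was reached by 3 regulators, Suz12, Wdr5 and Cbx8, against a background of 11%, and the arrays overlapped for every one of the 46, against a background of 7.47% without overlap. That number of 3 was 0 without young MPP4 replicate 3 or 4, 1 without replicate 5 and 5 without replicate 1. In old mice the same comparison called 0 regulators, with a background of 0%. An unadjusted p under 0.05 was reached by 7, against a background of 9.83%, with 6 higher (background 6.19%) and 1 lower (background 3.64%) in MPP4. Without old MPP4 replicate 2 the 7 became 2. The old MPP4 and old MPP3 arrays did not overlap for 9 regulators, against a background of 16.6%, with 8 higher (background 9.03%) and 1 lower (background 7.6%) in MPP4. Of the 46, 34 had a higher mean in old MPP4 than in old MPP3, against 48.3% of all genes, and 21 of 46 did so in young mice, against 49.9%. The comparison in old mice shares the old MPP3 arrays with the age comparison in MPP3.

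**Figure D2:**
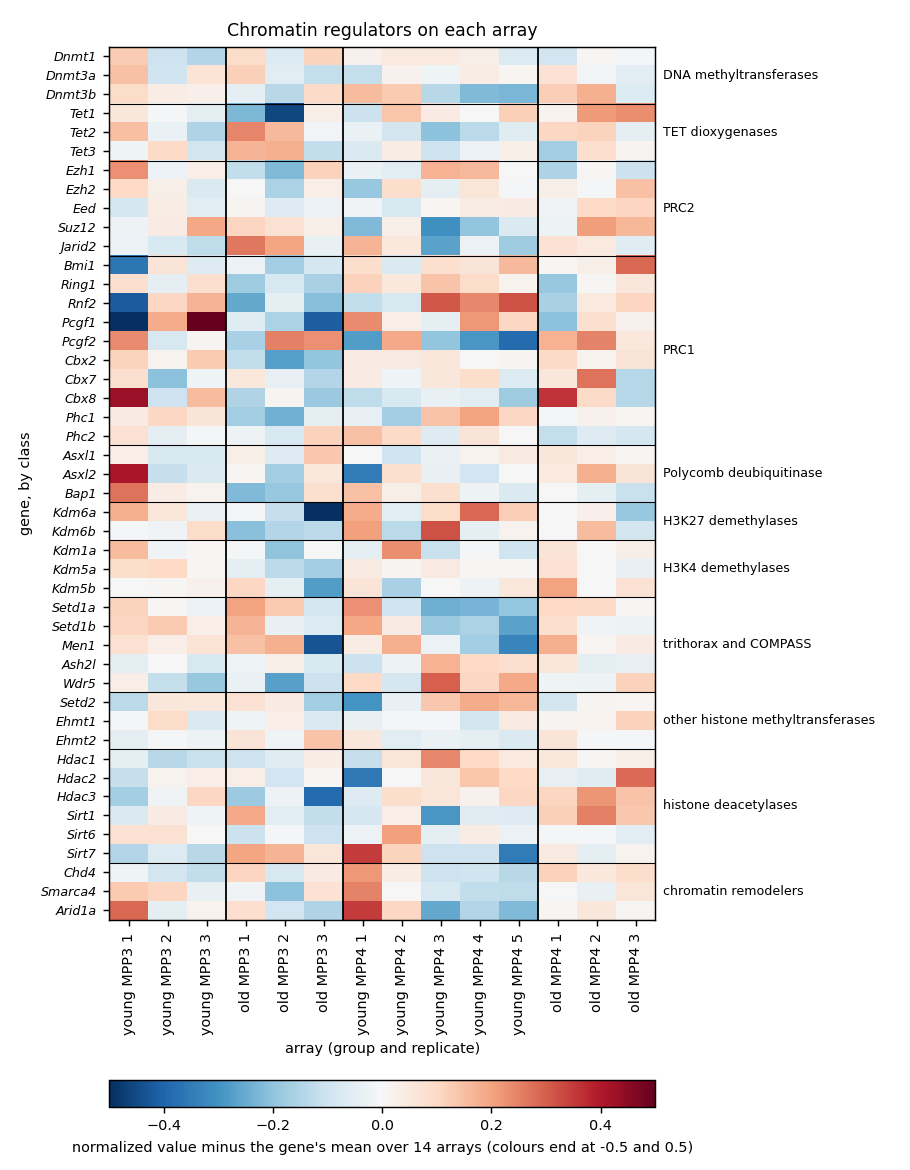
Normalized value of each of the 46 regulators (rows, by class) on each of the 14 arrays (columns), minus the mean of that gene over all arrays; red is above and blue below its mean. The PRC1 rows Ring1, Cbx2 and Phc1 are blue on all 3 old MPP3 arrays, and single arrays stand out, such as young MPP3 replicate 1 for Pcgf1.

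PRC1 held 10 measured genes, and 7 of the 10 had a lower mean in old than in young MPP3, with a class median of -0.153. Cbx2 encodes a chromodomain subunit that reads methylated lysine 27. Its normalized value was 1.62, 1.53 and 1.64 on the young MPP3 arrays and 1.39, 1.24 and 1.31 on the old MPP3 arrays. Every old MPP3 array was therefore below every young one, and below all 8 MPP4 arrays too. The MPP4 arrays lay within 1.51 to 1.57 in young and 1.53 to 1.61 in old mice, which overlap. The Cbx2 difference in MPP3 was -0.284 ± 0.0532 (SE, adjusted p = 0.471, limma), with a 95% interval of -0.418 to -0.149. In MPP4 the interval of the age difference was -0.0294 to 0.0853. The difference between these age differences was 0.312 ± 0.0542 (SE, adjusted p = 0.366, limma), and in old mice Cbx2 was 0.256 ± 0.0469 (SE, adjusted p = 0.269, limma) higher in MPP4 than in MPP3. Without each array in turn, the MPP3 difference ranged from -0.321 to -0.245, and within array set 1, where 1 young MPP3 array remains, it was -0.307. When all 4 groups were fitted together, Cbx2 passed the threshold in MPP3 (adjusted p = 0.0451) and between the old populations (adjusted p = 0.0387).

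Phc1 encodes a polyhomeotic subunit that helps PRC1 complexes cluster. Its values were 1.32, 1.39 and 1.35 in young MPP3 and 1.11, 1.04 and 1.23 in old MPP3, with no overlap. The difference was -0.225 ± 0.0552 (SE, adjusted p = 0.507, limma). In young MPP4 its lowest, median and highest values were 1.11, 1.38 and 1.48, and the old MPP4 arrays, at 1.28, 1.30 and 1.29, lay inside that span. Phc1 was also among 8 regulators whose young arrays did not overlap between the array sets, where 21.5% of all genes did not: the young arrays of set 1 had 1.11 to 1.32 and those of set 2 had 1.35 to 1.48. Ring1 encodes one of the catalytic ubiquitin ligases of PRC1, and it was 0.970, 0.841 and 0.969 in young MPP3 and 0.708, 0.804 and 0.720 in old MPP3. The MPP3 difference was -0.183 ± 0.0504 (SE, adjusted p = 0.511, limma). In young MPP4 Ring1 was 0.903 at its lowest, 0.974 at the median and 1.03 at its highest, and the old MPP4 arrays had 0.696, 0.889 and 0.940, which overlap. Averaged over both populations, Ring1 differed by -0.154 ± 0.0407 (SE, adjusted p = 0.159, limma).

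The other ligase, Rnf2, and its partners behaved less evenly. Rnf2 was 0.987 on young MPP3 replicate 1 and 1.51 and 1.57 on the other young MPP3 arrays, and the young arrays had 0.987 to 1.32 in set 1 against 1.51 to 1.72 in set 2. Pcgf1, a partner of RING proteins in variant PRC1, ranged from 0.188 to 1.38 within the 3 young MPP3 arrays, the widest range within a group for any of the 46. Bmi1 is the PCGF subunit known for stem cell self-renewal, and it averaged 1.49 ± 0.218 (SD, n = 3) in young MPP3, 1.51 ± 0.0722 (SD, n = 3) in old MPP3, 1.67 ± 0.0847 (SD, n = 5) in young MPP4 and 1.71 ± 0.155 (SD, n = 3) in old MPP4. The Bmi1 means of the 2 ages lay within the spread of either. In old mice each MPP4 array, at 1.61, 1.64 and 1.89, was above each MPP3 array, at 1.58, 1.44 and 1.52. The difference was 0.201 ± 0.0877 (SE, adjusted p = 0.549, limma).

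Pcgf2 encodes a PCGF protein close to BMI1. It was 0.673 at its lowest, 0.780 at the median and 1.25 at its highest in young MPP4, and 1.24, 1.31 and 1.11 in old MPP4. The highest young array, replicate 2, lay among the old ones. The difference was 0.351 ± 0.127 (SE, adjusted p = 0.464, limma). Young MPP4 differed from young MPP3 by -0.249 ± 0.136 (SE, adjusted p = 0.578, limma). Phc2, the second polyhomeotic gene measured, was 0.887 to 1.10 in young MPP4 and 0.830, 0.886 and 0.864 in old MPP4, with no overlap and a difference of -0.139 ± 0.0476 (SE, adjusted p = 0.448, limma). Its young arrays also divided by array set, at 1.03 to 1.10 in set 1 and 0.887 to 1.01 in set 2. Cbx8, a further chromodomain subunit, had an age difference that was 0.469 ± 0.181 (SE, adjusted p = 0.756, limma) higher in MPP4 than in MPP3, and it was 1.35, 0.811 and 1.07 in young MPP3, so that its 3 arrays spanned 0.811 to 1.35 alone. Cbx7 averaged 0.871 to 0.981 over the 4 groups, within the spread of its arrays.

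**Figure D3:**
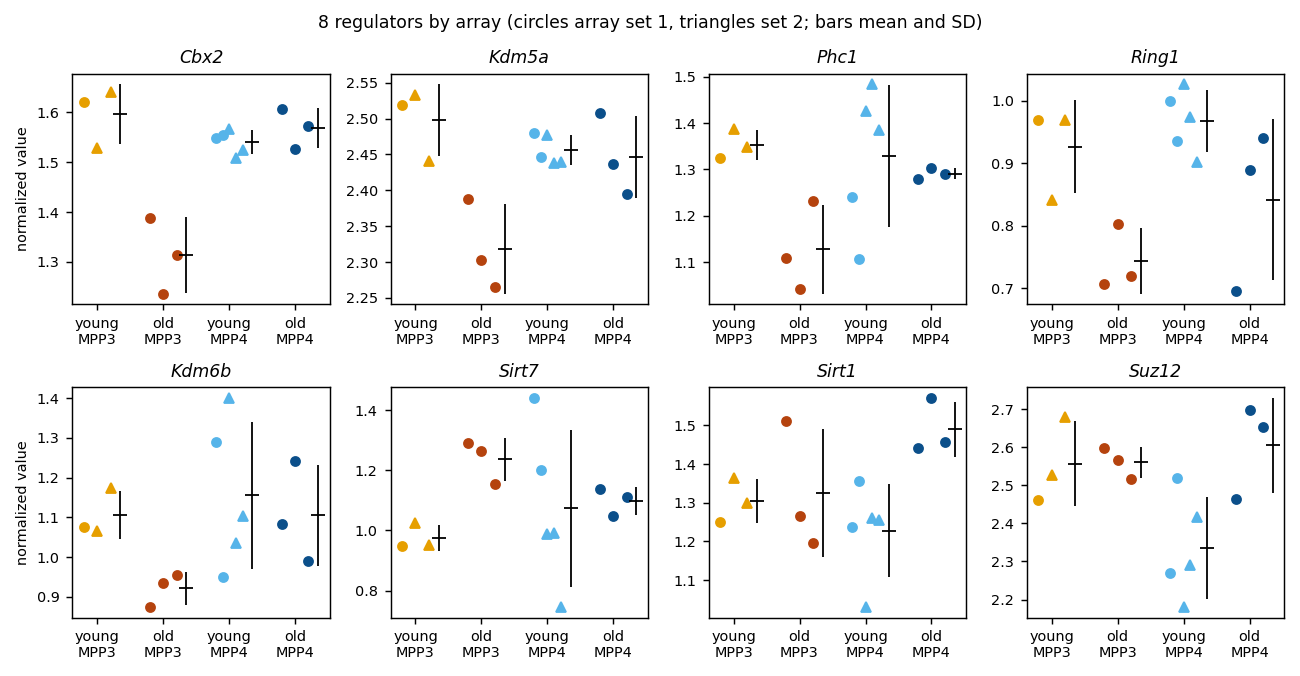
Normalized value of Cbx2, Kdm5a, Phc1, Ring1, Kdm6b, Sirt7, Sirt1 and Suz12 on each array, by group; each panel has its own axis, which does not start at zero. Circles are arrays of set 1, triangles arrays of set 2, and black bars are mean and SD. The old MPP3 arrays of Cbx2 (1.24 to 1.39) lie below all other arrays (1.51 to 1.64).

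PRC2 was measured through its catalytic subunits Ezh2 and Ezh1, the core partners Eed and Suz12, and the cofactor Jarid2. The mean over these 5 genes was 2.04 ± 0.0227 (SD, n = 3) for young MPP3 and 2.04 ± 0.0432 (SD, n = 3) for old MPP3, and 1.99 ± 0.0417 (SD, n = 5) for young MPP4 and 2.06 ± 0.0479 (SD, n = 3) for old MPP4. Ezh2 averaged 3.19 ± 0.0849 (SD, n = 3) in young MPP3, 3.13 ± 0.102 (SD, n = 3) in old MPP3, 3.15 ± 0.109 (SD, n = 5) in young MPP4 and 3.23 ± 0.0798 (SD, n = 3) in old MPP4, and the group ranges overlapped. Ezh1, the paralog that predominates in resting cells, averaged 1.5 ± 0.135 (SD, n = 3) in young MPP3, 1.35 ± 0.172 (SD, n = 3) in old MPP3, 1.48 ± 0.110 (SD, n = 5) in young MPP4 and 1.34 ± 0.0813 (SD, n = 3) in old MPP4. These Ezh1 ranges overlapped as well.

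Suz12 encodes the scaffold of PRC2. It was 2.46, 2.53 and 2.68 in young MPP3 and 2.60, 2.57 and 2.52 in old MPP3. In young MPP4 it was 2.18 at its lowest, 2.29 at the median and 2.52 at its highest, and in old MPP4 it was 2.46, 2.70 and 2.65. Young MPP4 thus held the lowest arrays, although its highest lay among the others. The Suz12 age difference in MPP4 was 0.270 ± 0.0871 (SE, adjusted p = 0.436, limma), and young MPP4 differed from young MPP3 by -0.222 ± 0.0849 (SE, adjusted p = 0.407, limma). Jarid2, which helps to place PRC2 on chromatin, was 1.78, 1.74 and 1.69 in young MPP3 and 2.08, 2.01 and 1.78 in old MPP3, where old replicate 3 lay at the level of young replicate 1. The Jarid2 difference was 0.219 ± 0.0851 (SE, adjusted p = 0.606, limma). Eed lay between 1.14 and 1.33 on all 14 arrays.

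ASXL proteins with BAP1 remove ubiquitin from histone H2A. Asxl1 averaged 1.84 ± 0.0664 (SD, n = 3) in young MPP3, 1.92 ± 0.100 (SD, n = 3) in old MPP3, 1.87 ± 0.0555 (SD, n = 5) in young MPP4 and 1.92 ± 0.0243 (SD, n = 3) in old MPP4. These means lay within the spread of the arrays. Bap1 was 2.02, 1.79 and 1.77 in young MPP3 and 1.53, 1.56 and 1.83 in old MPP3, which overlap, and averaged over both populations it differed by -0.152 ± 0.0594 (SE, adjusted p = 0.301, limma). Asxl2 was 2.24 on young MPP3 replicate 1 and 1.48 to 2.01 on the other 13 arrays.

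The lysine 27 demethylases Kdm6a and Kdm6b both had a lower mean in the old group of each population, without a call, and also with normal scores or renewed quantile normalization. Kdm6b was 1.08, 1.07 and 1.17 in young MPP3 and 0.874, 0.936 and 0.955 in old MPP3, with no overlap and a difference of -0.184 ± 0.0424 (SE, adjusted p = 0.493, limma). In young MPP4 Kdm6b ranged from 0.950 to 1.40, a span that covered all 3 old MPP4 arrays.

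Kdm6a lies on the X chromosome and is known to escape X inactivation in part, so its values are given beside those of Xist. Its values were 1.81, 1.69 and 1.60 in young MPP3, 1.62, 1.52 and 1.08 in old MPP3, 1.58 at the lowest, 1.76 at the median and 1.92 at the highest in young MPP4, and 1.63, 1.66 and 1.44 in old MPP4. The 4 arrays with Xist above 1 (2.23 to 3.52) had Kdm6a values of 1.76 to 1.92, and the other 10, with Xist of 0.106 to 0.215, had 1.08 to 1.72, so they did not overlap. Young MPP4 replicates 4 and 5 had both Xist, at 3.19 and 2.23, and the Y-linked Eif2s3y, at 0.855 and 1.89, while Eif2s3y was 0.0221 and 0.0261 on the remaining arrays with Xist. Averaged over both populations the Kdm6a age difference was -0.239 ± 0.0862 (SE, adjusted p = 0.271, limma), and without the 4 arrays it was -0.156 (adjusted p = 0.519, limma). In MPP3 it was -0.295 ± 0.155 (SE, adjusted p = 0.668, limma), and without old MPP3 replicate 3 it was -0.133. In MPP4 it was -0.183 ± 0.0826 (SE, adjusted p = 0.528, limma), and without the 3 MPP4 arrays with Xist it was -0.0740. All 4 arrays with Xist were young, and the part of sex in the Kdm6a levels or in their age difference was not tested beyond these values.

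**Figure D4:**
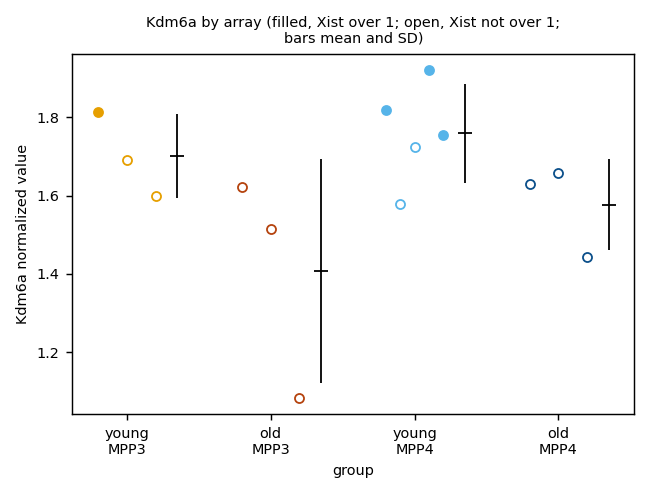
Normalized value of Kdm6a on each array, by group, with filled points for arrays whose Xist value is over 1; the axis does not start at zero, and bars are mean and SD. The 4 filled points (1.76 to 1.92) lie above the 10 open ones (1.08 to 1.72).

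For DNA methylation, Dnmt1, the maintenance methyltransferase, averaged 3.04 ± 0.146 (SD, n = 3) in young MPP3, 3.13 ± 0.0980 (SD, n = 3) in old MPP3, 3.10 ± 0.0478 (SD, n = 5) in young MPP4 and 3.05 ± 0.0558 (SD, n = 3) in old MPP4. Dnmt3a, a de novo methyltransferase, averaged 1.57 to 1.63 over the 4 groups, with SDs of 0.0630 to 0.124. Dnmt3b, the second de novo enzyme, averaged 1.80 ± 0.0353 (SD, n = 3) in young MPP3, 1.71 ± 0.117 (SD, n = 3) in old MPP3, 1.68 ± 0.190 (SD, n = 5) in young MPP4 and 1.82 ± 0.129 (SD, n = 3) in old MPP4. None of these 3 enzymes passed the test with age, and the old and young ranges overlapped. Dnmt3b divided the young arrays by set instead, with 1.84 to 1.90 in set 1 and 1.51 to 1.78 in set 2.

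Tet2, whose loss is frequent in clonal hematopoiesis, was 1.44, 1.25 and 1.14 in young MPP3 and 1.53, 1.45 and 1.27 in old MPP3. In young MPP4 it was 1.08 at its lowest, 1.2 at the median and 1.25 at its highest, and in old MPP4 it was 1.39, 1.40 and 1.24. Replicates 1 and 2 of old MPP4 lay above all young MPP4 arrays and replicate 3 lay among them. The Tet2 age difference was 0.161 ± 0.0517 (SE, adjusted p = 0.433, limma) in MPP4 and 0.152 ± 0.0559 (SE, adjusted p = 0.279, limma) averaged over both populations. Tet1 was 2.03, 1.97 and 1.92 in young MPP3, 1.75, 1.52 and 2.00 in old MPP3, and 1.99, 2.19 and 2.20 in old MPP4. The old MPP3 arrays spread widely, with replicate 3 inside the range of the young arrays. The old MPP4 and old MPP3 groups differed by 0.371 ± 0.137 (SE, adjusted p = 0.486, limma), and 2.00 and 1.99 were the values at which they met. Tet3 averaged 0.969 to 1.07 over the 4 groups.

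Among the trithorax and COMPASS genes, Wdr5, a core subunit of the methyltransferase complexes, was 1.49, 1.33 and 1.26 in young MPP3 and 1.37 at the lowest, 1.56 at the median and 1.75 at the highest in young MPP4. The difference was 0.213 ± 0.0882 (SE, adjusted p = 0.447, limma), but within array set 1, which holds 1 young MPP3 array, it was -0.0249. Setd1a and Setd1b, catalytic subunits, and the adaptor Men1 had their lowest young MPP4 arrays in set 2: Setd1b was 0.996 to 1.11 on the 3 young MPP4 arrays of set 2 and 1.31 to 1.46 on those of set 1. When the young populations were compared within set 2 alone, Setd1a (-0.212, adjusted p = 0.0260), Setd1b (-0.286, adjusted p = 0.0452) and Dnmt3b (-0.228, adjusted p = 0.0366, limma) passed the threshold, with 2 MPP3 and 3 MPP4 arrays. These were 3 of the 46 regulators, against a background of 7.79% of all genes called in that fit. Ash2l averaged 2.19 to 2.27 over the 4 groups.

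KDM1A and the KDM5 enzymes remove the lysine 4 mark. Kdm5a was 2.52, 2.53 and 2.44 in young MPP3 and 2.39, 2.30 and 2.27 in old MPP3, so every old array lay below every young one. The difference was -0.179 ± 0.0456 (SE, adjusted p = 0.507, limma), and against the 1 young MPP3 array of set 1 it was -0.201. In MPP4 the arrays lay at 2.44 to 2.48 in young mice and 2.40 to 2.51 in old mice, which overlap. The age difference of MPP4 exceeded that of MPP3 by 0.169 ± 0.0508 (SE, adjusted p = 0.687, limma). Kdm1a averaged 2.18 to 2.30 and Kdm5b 1.77 to 1.93 over the 4 groups.

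Of the histone deacetylases measured, Sirt7 had the largest age difference in MPP3 and Sirt1 the largest in MPP4. Sirt7, a deacetylase known for its place at ribosomal DNA, was 0.947, 1.02 and 0.952 in young MPP3 and 1.29, 1.26 and 1.15 in old MPP3, with no overlap. The difference was 0.261 ± 0.0472 (SE, adjusted p = 0.471, limma). Young MPP4 ranged from 0.745 to 1.44, a span that covered all old MPP4 arrays. Sirt6, which deacetylates histone H3 at sites of DNA repair, was 0.693, 0.694 and 0.617 in young MPP3 and 0.510, 0.612 and 0.514 in old MPP3, also with no overlap. Sirt1 was 1.03 at its lowest, 1.26 at the median and 1.36 at its highest in young MPP4, and 1.44, 1.57 and 1.46 in old MPP4. The Sirt1 difference was 0.262 ± 0.0714 (SE, adjusted p = 0.374, limma).

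Hdac3, the catalytic subunit of the NCoR and SMRT complexes, was 0.722, 0.877 and 0.998 in young MPP3, 0.712, 0.863 and 0.503 in old MPP3, and 1.00, 1.11 and 1.04 in old MPP4. Old MPP4 lay above both MPP3 groups and above young MPP4, whose arrays had 0.830 to 0.997. In old mice the populations differed by 0.357 ± 0.0969 (SE, adjusted p = 0.381, limma), and the MPP4 age difference was 0.115 ± 0.0440 (SE, adjusted p = 0.482, limma). Hdac1 was 2.86, 2.77 and 2.79 in young MPP3, and young MPP4 had arrays from 2.79 to 3.14, which overlap, with a difference of 0.165 ± 0.0729 (SE, adjusted p = 0.474, limma). Hdac2 averaged 3.32 to 3.40 over the 4 groups. Of the remaining histone methyltransferases, Ehmt2, an enzyme for lysine 9, had age differences whose mean was 0.0692 ± 0.0288 (SE, adjusted p = 0.328, limma), Ehmt1 averaged 1.2 to 1.27 over the 4 groups and Setd2 2.47 to 2.53. Of the remodelers, Chd4 of the NuRD complex and Smarca4 and Arid1a of the BAF complex averaged 3.14 to 3.30, 2.33 to 2.45 and 2.46 to 2.60 over the 4 groups. Arid1a was 2.61 to 2.86 on the young arrays of set 1 and 2.26 to 2.53 on those of set 2.

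By class, the mean over the members was higher in old than in young MPP3 for 4 of 11 classes and in old than in young MPP4 for 10 of 11. It was higher in MPP4 than in MPP3 for 3 of 11 classes in young mice and for 11 of 11 in old mice. A class mean can rest on 1 member. In old mice 1 of 3 TET genes was higher in MPP4, with a class median difference of -0.0760. Among the remaining histone methyltransferases it was 1 of 3, with a median of -0.00553 and class means of 1.58 in MPP3 and 1.59 in MPP4. The median differences of the other classes were above zero. PRC1 was 1.10 to 1.24 per array in young MPP3, 1.02 to 1.05 in old MPP3, 1.13 to 1.19 in young MPP4 and 1.13 to 1.21 in old MPP4. The mean over all 46 was 1.69 to 1.73 in young MPP3, 1.62 to 1.69 in old MPP3, 1.66 to 1.71 in young MPP4 and 1.72 to 1.75 in old MPP4. Old MPP3 replicates 2 and 3 were each the lowest of the 14 arrays for 7 regulators, young MPP4 replicates 3 and 5 each for 6 and young MPP4 replicate 1 for 5.

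Averaged over both populations, old against young called 8 of all 19155 genes, a background of 0.0418%, and 0 of the 46 regulators. An unadjusted p under 0.05 was reached by 12, against a background of 13.6%, with 4 higher (background 5.95%) and 8 lower (background 7.63%) in old cells. The 12 became 5 without old MPP3 replicate 1 and 7 without young MPP3 replicate 3, young MPP4 replicate 4 or old MPP4 replicate 3. The mean difference was above zero for 24 of 46, against 50.6% of all genes. Cbx2 had the smallest p of them, with -0.128 ± 0.0271 (SE, adjusted p = 0.134, limma), and Kdm5a followed Ring1 with -0.0945 ± 0.0254 (SE, adjusted p = 0.167, limma). The Cbx2 average joins a difference in MPP3 to an interval around zero in MPP4.

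A list of 120 further chromatin genes, of which 110 were measured, gave 0 calls in each of the 6 comparisons. At an unadjusted p under 0.05 there were 8 in MPP3 (2 higher, 6 lower in old), 11 in MPP4 (5 higher, 6 lower in old), 13 between the young populations and 10 between the old ones, against the same backgrounds as above. In MPP3 the list's median difference was -0.0415, with 36 of 110 higher in old cells against 50.1% of all genes. In MPP4 the median was 0.00321, with 58 of 110 higher in old cells against 49.8% of all genes. Between the old populations the median was 0.0486, with 78 of 110 higher in MPP4 against 48.3% of all genes. For the difference between the age differences it was 0.0634, with 72 of 110 above zero against 48.7%. In both, these genes leaned the same way as the regulators. Between the young populations the median was -0.0163, with 48 of 110 higher in MPP4 against 49.9%. For the mean age difference it was -0.0195, with 45 of 110 above zero against 50.6%. For age in MPP3 the list was led by Mbd1, which binds methylated DNA (0.177, adjusted p = 0.471, limma), and Sirt4, a mitochondrial sirtuin (-0.143, adjusted p = 0.471, limma). Kdm4a, a demethylase of lysine 9 (-0.171, adjusted p = 0.511, limma), and Uhrf2, a reader of modified cytosine (-0.392, adjusted p = 0.559, limma), followed. For age in MPP4 it was led by the arginine methyltransferase Prmt1 (-0.142, adjusted p = 0.290, limma) and Prdm2 (0.197, adjusted p = 0.361, limma). The acetyltransferase Kat6a (0.166, adjusted p = 0.364, limma) and the lysine 36 methyltransferase Nsd2 (0.271, adjusted p = 0.374, limma) followed. Between the old populations Crebbp, an acetyltransferase, led with 0.309 (adjusted p = 0.239, limma), higher in MPP4.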

How the data were processed

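Gene expression was measured in young and old MPP3 and MPP4 on 14 Affymetrix Mouse Gene ST 1.0 arrays after linear amplification of RNA. Each deposited value is a score: the authors ran RMA (no version given) and then fitted every array by quantiles to an exponential reference. They were used as deposited, so a difference is not a fold.

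The platform annotation covered 19980 of 22115 probe sets and left 2135 unnamed. Those with several genes (744) were dropped, 71 lacked a RefSeq match, and the brightest probe set stood for each of 76 genes with several, giving 19155 genes. The arrays of each comparison were fitted in limma 3.58.1 under R 4.3.3 (lmFit and eBayes, two-sided), p-values were adjusted by Benjamini-Hochberg across the 19155 genes, and the threshold was 0.05, in place of the SAM statistic of the methods. The script was tested on simulated data. Summaries and figures used Python 3.11.15. Genes were named as the 6 smallest p-values per comparison where none passed. A further 10 known regulators were to be named in any case: Kdm6a, Ezh1, Ezh2, Dnmt1, Dnmt3a, Dnmt3b, Tet1, Tet2, Asxl1 and Bmi1. Other members appear by their levels or class. Up to 4 genes per comparison were named from the further list. The alternatives were 1 fit of all groups, a variance trend, array weights, a filter on dim genes, normal scores, renewed quantile normalization, another probe set rule, a replicate block, sex, array set and each array left out. Comparisons within 1 array set were added after seeing the data. The members and lists were chosen with earlier results of these data known. The number of arrays limits the precision.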

Additional observations from a re-analysis of the deposited data

Results flagged for a closer look

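In young MPP4, the one group large enough to look for a single array far from the rest, 2 of 46 regulators had one, where chance gives about 5% of such groups. Dnmt1 was 3.02 on replicate 5 and 3.11 to 3.14 on the other 4 arrays. Hdac2 was 2.99 on replicate 1 and 3.34 to 3.48 on the others.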

How the results depend on the processing

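The count of regulators past the threshold was 0 in each of the 6 comparisons, and it stayed at 0 with each array left out in turn (lowest 0, highest 0). One fit of all 4 groups gave 1 regulator, Cbx2, in MPP3 with age and 1, Cbx2, between the old populations. Array weights gave 3 between the young populations (Suz12, Wdr5 and Hdac1), 2 for the difference between the age differences (Cbx2 and Hdac3) and 13 for the mean age difference. Array set 2 alone gave 3 between the young populations (Setd1a, Setd1b and Dnmt3b). The causes were not tested. The number of all genes called moved as well: 25 between the young populations became 1808 with array weights, 271 with array set as a term, 48 with a variance trend, 59 without the dim genes, 51 with normal scores, 1492 in array set 2, 0 in array set 1, without the Xist arrays or with a replicate block, and 8 to 108 with an array left out. The 8 of the mean age difference became 4384 with array weights, 22 with array set as a term, 4, 2 and 3 with a variance trend, without dim genes and with normal scores, 3 without the Xist arrays, 1 with the block, 0 in array set 1 and 1 to 119 with an array left out. The 0 of the other comparisons became at most 304 for age in MPP4 and 574 for the difference between the age differences, both with array weights, and 9 for age in MPP3 and 27 between the old populations in 1 fit of all groups. At an unadjusted p under 0.05, the variance trend left 2 of 8 regulators for age in MPP3, 3 of 7 between the old populations and 5 of 12 for the mean age difference. With normal scores, the class mean was higher in old MPP3 for 2 classes in place of 4. Of the single regulators given with a difference, 2 changed sign under an alternative, both between the young populations: Pcgf2 (-0.249) was 0.0292 without the arrays with Xist, and Wdr5 (0.213) was -0.0249 in array set 1 alone, where 1 young MPP3 array is assumed to vary like the other group. In all, 737 of 750 values of 38 such results kept their direction and their side of the threshold and 11 came past it. Part of that agreement was fixed in advance, so the count does not measure stability. No regulator had several probe sets or lay among the dim genes, so those 2 alternatives left each difference unchanged. The variance trend and the 1 fit of all groups alter only the error estimate, and no result had passed the threshold to begin with.

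The replicate numbers did not pair the arrays throughout. Correlations of the deviations of same-numbered arrays were -0.105, 0.255 and -0.192 for age in MPP3 and 0.261, -0.0329 and 0.130 for age in MPP4. They were 0.407, -0.148 and 0.178 between the young and 0.0485, 0.00773 and -0.0428 between the old populations. The same-numbered array correlated best for old MPP3 replicate 2 and old MPP4 replicate 1 with age, and for young MPP4 replicates 1 and 3 against young MPP3. For the others it did not. Young replicate 1 had Xist of 3.52 in MPP3 and 3.49 in MPP4, both in array set 1. Whether any same-numbered arrays share mice was not tested. With a replicate block 0 regulators passed in each of the 6 comparisons. The uncalled differences of the 10 regulators named in any case changed sign under 2 (Tet1) to 16 (Ezh1) of 119 alternatives each. Those alternatives are counted over all 6 comparisons together, so the count does not tell which comparison changed sign. The levels given for these regulators without a difference are not read as a direction. With 3 to 5 arrays a group, an uncalled difference is not evidence of no change, and the intervals give sizes these arrays allow.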
